A study of Sus scrofa with 36 samples.

Results

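Cholesterol is made in every nucleated cell from acetyl-CoA through the mevalonate pathway, and adipose tissue holds a large share of the body's free cholesterol in and around its lipid droplets. When the membrane of the endoplasmic reticulum is poor in sterol, the escort protein SCAP carries the transcription factor SREBP2 to the Golgi, where proteases release its active part, which turns on genes of sterol synthesis and uptake. When sterol is plentiful, INSIG proteins hold SCAP back and the genes are turned down. Expression was described here for 6 genes of this system in subcutaneous adipose tissue. They are HMGCS1, which makes HMG-CoA, IDI1, which isomerises the isoprene units, FDFT1, which makes squalene, SQLE, which oxidises squalene, SREBF2, which encodes SREBP2, and INSIG1, which retains SCAP. The genes were chosen by symbol, and 6 of 6 were found among the 12253 genes of the RNA-Seq table, each in 1 row (HMGCS1 ENSSSCG00000016872, SQLE ENSSSCG00000005970, INSIG1 ENSSSCG00000016420, FDFT1 ENSSSCG00000026044, IDI1 ENSSSCG00000029066, SREBF2 ENSSSCG00000026092).

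The 36 pigs came from an intercross of Göttingen minipig boars and Duroc sows, and each pig gave 1 library. They were selected on the Obesity Index, an aggregate genetic value for fatness, into 12 lean pigs (Low, 7 males and 5 females), 12 intermediate pigs (Mean, 6 males and 6 females) and 12 obese pigs (High, 6 males and 6 females). No group was treated, and the pigs were slaughtered near a common weight, so lean pigs were older than intermediate and obese pigs, and age and group cannot be told apart. Sibs and sequencing lanes are not given per pig in the labels.

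Between 8735838 and 11755925 reads per pig were recovered from the table, with a median of 10496910. Levels are given as normalized counts, which are recovered reads divided by the pig's size factor, and differences as log2 differences of the deposited values. Levels were compared between pigs within a gene and not between genes, since no gene lengths were used. Of 11 adipocyte markers, 6 were matched in the table (PLIN1, LIPE, CIDEC, PLIN4, PNPLA2 and PPARG), with a summed normalized count of 30280 to 106200 per pig. The sum of the 7 matched macrophage markers (of 12) had group medians of 2565 (lean), 5560 (intermediate) and 6565 (obese). In bulk tissue, fewer cells of a type and less RNA per cell cannot be told apart. The sum of the skin markers KRT10 and DSP was 14390 in lean replicate 7, a male, and at most 1039 in the other pigs, so the differences and the leading correlations are also given without it.

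The first question was whether the genes differed between obese and lean pigs. None of the 6 genes passed the test between the groups, and the individual pigs overlapped widely in every gene. HMGCS1, the enzyme that condenses acetyl-CoA and acetoacetyl-CoA, ranged over normalized counts of 548.1 to 2099 in lean pigs (median 671.4), 644.9 to 1633 in intermediate pigs (median 832.5) and 637.0 to 1998 in obese pigs (median 787.7). Although 11 of 12 obese pigs and 11 of 12 intermediate pigs lay above the lean median, the highest pig was lean and the means were close, at 998.9 ± 544.6 (SD, n = 12) in lean and 969.1 ± 393.6 (SD, n = 12) in obese pigs. The log2 difference, obese minus lean, was 0.07 (SE 0.19, limma adjusted p = 0.916) and was 0.16 without lean replicate 7 (limma adjusted p = 0.752).

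IDI1, the isopentenyl diphosphate isomerase, was counted with few reads and varied most. Its normalized counts ran from 6.09 to 72.91 in lean pigs (median 22.21), from 12.27 to 76.12 in intermediate pigs (median 30.62) and from 11.31 to 79.04 in obese pigs (median 32.08). The lowest pig was lean and 8 of 12 obese pigs lay above the lean median, but the ranges overlapped nearly throughout. Obese pigs differed from lean pigs by 0.45 on the log2 scale (SE 0.32, 95% interval -0.19 to 1.09, limma adjusted p = 0.525), which did not pass the test.

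FDFT1 is the squalene synthase, the step that commits carbon to sterols. Its normalized counts ranged from 588.7 to 1275 in lean pigs (median 838.0), from 622.7 to 1497 in intermediate pigs (median 760.0) and from 509.7 to 1639 in obese pigs (median 739.8). Obese pigs spread the most, with 2 pigs below the lowest and 3 pigs above the highest lean pig. The log2 difference was -0.04 (SE 0.18, limma adjusted p = 0.948). For SQLE, the squalene epoxidase and a slow step of the pathway, the range was 84.39 to 426.8 in lean pigs (median 173.4), 97.57 to 344.7 in intermediate pigs (median 155.2) and 99.12 to 374.6 in obese pigs (median 145.7). All obese and intermediate values of SQLE fell within the lean range, with a log2 difference, obese minus lean, of -0.09 (SE 0.24, limma adjusted p = 0.913).

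The regulators did not pass either. SREBF2 had normalized counts of 442.6 to 918.9 in lean pigs (median 684.2), 419.7 to 901.7 in intermediate pigs (median 652.1) and 491.4 to 733.9 in obese pigs (median 568.4). Only 2 of 12 obese pigs exceeded the lean median, and every obese pig lay inside the lean range. The log2 difference, obese minus lean, was -0.16 (SE 0.11, 95% interval -0.38 to 0.06, limma adjusted p = 0.51). INSIG1 ranged from 297.4 to 2099 in lean pigs (median 961.5), from 592.4 to 1812 in intermediate pigs (median 1041) and from 523.7 to 2376 in obese pigs (median 1129). Its lowest pigs were lean and 10 of 12 obese pigs lay above the lean median, with a log2 difference of 0.28 (SE 0.25, 95% interval -0.23 to 0.79, limma adjusted p = 0.645).

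**Figure D1:**
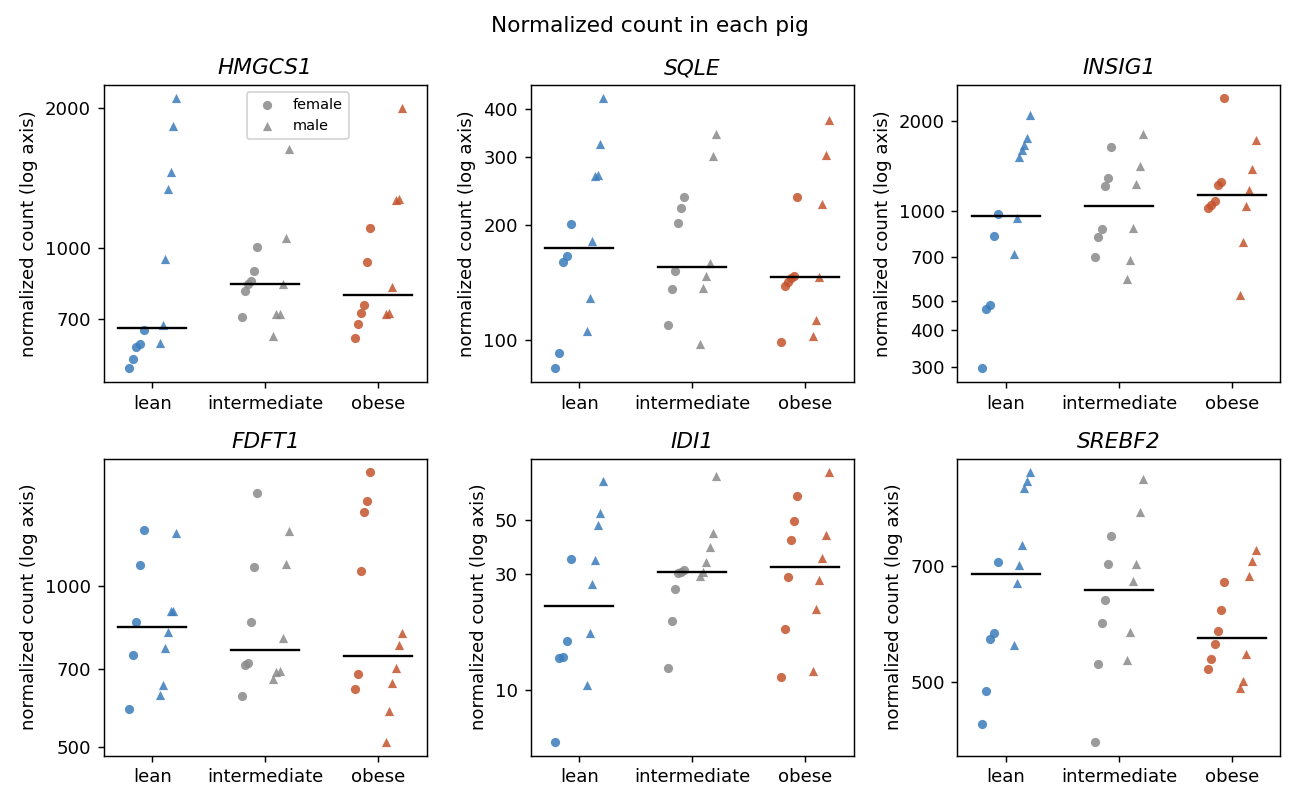
Normalized count (log axis) of each of the 6 genes in each of the 36 pigs by group, with circles for females, triangles for males and a black line at the group median. The groups overlap in every panel, and the 5 lean females sit low for HMGCS1, between 548.1 and 661.9. For INSIG1, lean females at 297.4, 471.6 and 483.3 lie lowest, while those at 822.3 and 976.8 lie among the other pigs.

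Across all genes, 0.0408% passed for obese minus lean at an adjusted p of 0.05 and 14.7% at an unadjusted p of 0.05, and of the 6 genes 0 passed either way. The median log2 difference of the 6 genes was 0.01, beside -0.011 over all genes. For the linear trend over lean, intermediate and obese pigs, 0.0245% of all genes passed (14.5% unadjusted) and again 0 of the 6 genes, with limma adjusted p from 0.506 for SREBF2 to 0.947 for FDFT1. Neighbouring groups shared their lean or obese pigs with this comparison and did not separate the genes either. With limma, intermediate minus lean passed for 0% of all genes (12.5% unadjusted) and obese minus intermediate for 0% (4.28% unadjusted), and 0 of the 6 genes were past an unadjusted p of 0.05 in either. Without lean replicate 7, obese minus lean was -0.02 for SQLE, 0.27 for INSIG1, -0.02 for FDFT1, 0.48 for IDI1 and -0.13 for SREBF2, and again 0 of the 6 genes passed. The precision was limited by the spread between pigs. The 95% intervals for obese minus lean allowed a fold of 0.805 to 1.36 for HMGCS1, 0.672 to 1.32 for SQLE, 0.854 to 1.73 for INSIG1, 0.759 to 1.25 for FDFT1, 0.877 to 2.13 for IDI1 and 0.767 to 1.04 for SREBF2.

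The enzymes and INSIG1 varied more between pigs than most genes. Over the 36 pigs, the SD of the log2 values was 0.847 for IDI1, 0.643 for INSIG1, 0.617 for SQLE, 0.514 for HMGCS1 and 0.453 for FDFT1, while the median gene of the table had an SD of 0.336. SREBF2 was steadier, with an SD of 0.293. Among the 1001 genes nearest in mean level, the share with a lower SD was 94.0% for INSIG1, 90.1% for SQLE, 89.4% for HMGCS1, 88.8% for IDI1, 85.4% for FDFT1 and 63.8% for SREBF2. The spread was therefore described next by sex, the other label each pig carries.

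Log2 differences lay on the side of males in 5 of the 6 genes, but no gene passed the correction over all genes. HMGCS1 ranged from 621.1 to 2099 in the 19 males (median 945.8) and from 548.1 to 1101 in the 17 females (median 722.6). Values above 1101 were seen only in males, and 12 of 19 males lay above the female median. The log2 difference, male minus female, was 0.47 (SE 0.15, unadjusted p = 0.00435, limma adjusted p = 0.091) and was 0.41 without lean replicate 7 (limma adjusted p = 0.116). IDI1 ranged from 10.5 to 79.04 in males (median 34.44) and from 6.09 to 62.96 in females (median 26.11), and 15 of 19 males lay above the female median. Its log2 difference was 0.61 (SE 0.26, unadjusted p = 0.0237, limma adjusted p = 0.2).

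SREBF2 had normalized counts of 491.4 to 918.9 in males (median 701.8) and 419.7 to 762.6 in females (median 575.9), a log2 difference of 0.23 (SE 0.09, unadjusted p = 0.0139, limma adjusted p = 0.155). The summed adipocyte markers had a median of 62740 in males and 83920 in females, with 2 of 6 markers lower in males past the correction, and the r of the 6 genes with that sum ran from -0.495 for SREBF2 to 0.227 for FDFT1, and after a sex term from -0.366 for SREBF2 to 0.08 for FDFT1. The 6 fibroblast or progenitor markers had a median sum of 366700 in males and 235900 in females, with 1 marker (DCN) past the correction, and 2 of the 6 had differences below 0 (PI16 at -0.46 and DPP4 at -0.97). The r of the 6 genes with that sum ran from -0.366 for FDFT1 to 0.299 for INSIG1, and after a sex term from -0.324 for SQLE to 0.216 for INSIG1. The 3 T and NK cell markers had 195.8 in males and 346.9 in females, with 0 past the correction, and the r of the 6 genes with that sum ran from -0.314 for HMGCS1 to 0.231 for FDFT1, and after a sex term from -0.0932 for HMGCS1 to 0.237 for IDI1. The part of cell composition in the sex differences was not tested. SQLE and INSIG1 were on the same side, with log2 differences of 0.37 (limma adjusted p = 0.308) and 0.31 (limma adjusted p = 0.433). FDFT1 was on the other side, at -0.29 (95% interval -0.58 to 0.003, limma adjusted p = 0.277). In this comparison 2.19% of all genes passed at an adjusted p of 0.05 and 18.3% at an unadjusted p of 0.05, while 0 and 3 of the 6 genes did so. The median difference of the 6 genes was 0.34, beside -0.009 over all genes. Without lean replicate 7, male minus female was 0.59 for IDI1 (limma adjusted p = 0.233), 0.21 for SREBF2 (limma adjusted p = 0.2), 0.33 for SQLE, 0.31 for INSIG1 and -0.30 for FDFT1.

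**Figure D2:**
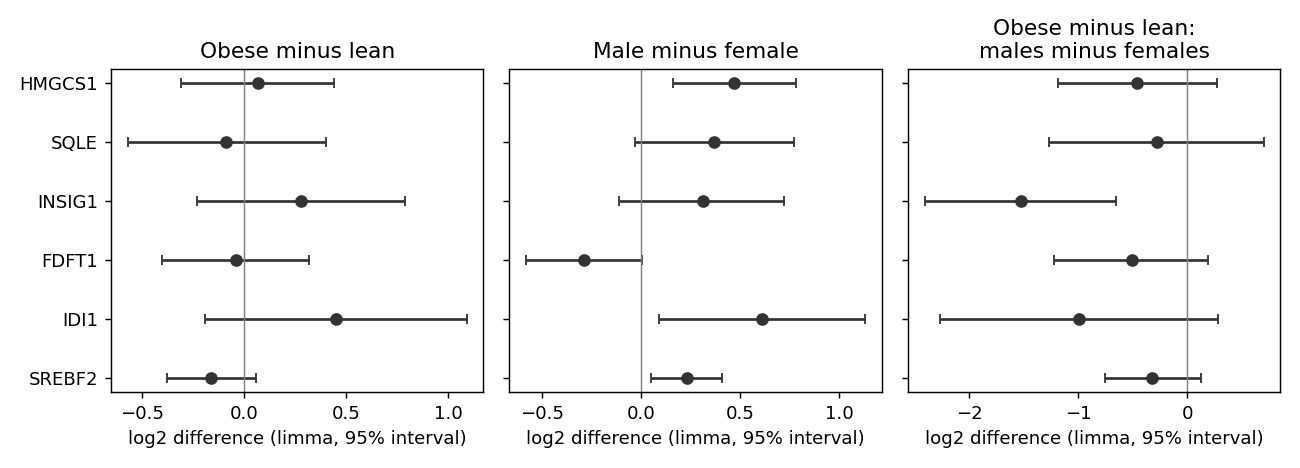
Log2 differences of the 6 genes with 95% intervals from limma over 36 pigs: obese minus lean (left), male minus female (centre), and the difference between the sexes in obese minus lean (right). All 6 intervals cross 0 on the left, those of HMGCS1, IDI1 and SREBF2 lie above 0 in the centre, and that of INSIG1, -2.41 to -0.65, lies below 0 on the right.

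Whether obese minus lean was the same in both sexes was tested with an interaction term. INSIG1 stood out among the 6 genes. In the 5 lean females its normalized counts were 297.4, 471.6, 483.3, 822.3 and 976.8, and in the 6 obese females they ran from 1026 to 2376 with a median of 1151. All obese females lay above all lean females on this scale. Lean and obese females did not overlap, in either direction, in 1 of the 6 genes and in 2.55% of all genes. On the deposited log2 values, which are divided by the size factor plus 1, the INSIG1 values of these females did overlap. In males the medians stood in the other order, with 716.5 to 2099 in lean males (median 1603) and 523.7 to 1730 in obese males (median 1110), and the males overlapped. No gene of the 6 was free of overlap between lean and obese males, as against 0.286% of all genes.

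The log2 difference of INSIG1, obese minus lean, was 1.12 in females alone (SE 0.298, limma adjusted p = 0.105) and -0.41 in males alone (SE 0.287, limma adjusted p = 0.584). The interaction, males minus females, was -1.53 (SE 0.43, unadjusted p = 0.00122, limma adjusted p = 0.2) and ranged from -1.75 to -1.29 when each pig was left out in turn, with an adjusted p of 0.0685 or more. It therefore did not pass the correction. The other 5 genes also had interactions below 0, from -0.28 for SQLE to -0.99 for IDI1, with limma adjusted p of 0.497 or more. Over all genes 0.00816% passed at an adjusted p of 0.05 and 12.9% at an unadjusted p of 0.05, and 0 and 1 of the 6 genes did. In all, 39.6% of genes had an interaction below 0.

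In females alone, 0.171% of all genes passed for obese minus lean and 15.7% were past an unadjusted p of 0.05, and 0 and 3 of the 6 genes were. Beside INSIG1, these were HMGCS1 with a log2 difference of 0.33 (limma adjusted p = 0.183) and IDI1 with 0.99 (limma adjusted p = 0.285). HMGCS1 had normalized counts of 548.1, 574.5, 610.1, 619.3 and 661.9 in the 5 lean females and 707.8 to 1005 in the 6 intermediate females, which did not overlap. Such separation of lean and intermediate females was seen for 1 of the 6 genes and for 0.596% of all genes. The obese females, at 637.0 to 1101, overlapped the lean females in HMGCS1.

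The third question was whether the genes varied together from pig to pig. HMGCS1 and SQLE did so closely. Over the 36 pigs the log2 values of the pair had r = 0.821 and rho = 0.783, both with a permutation p of 1e-05, the smallest that 100000 resamples can give, and BH-corrected values of 7.5e-05 and 0.00015 over the 15 pairs. Out of 12252 other genes, SQLE had the highest r with HMGCS1, and HMGCS1 the highest with SQLE. The relation held in each group, with r = 0.784 (lean), 0.849 (intermediate) and 0.925 (obese), and in each sex, with r = 0.648 in females and 0.856 in males. It was 0.788 without the 2 pigs farthest from the median of HMGCS1, 0.813 after group and sex terms and 0.812 without lean replicate 7.

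SREBF2 followed the same pair of enzymes. Its r with SQLE was 0.702 (rho 0.618, BH-corrected permutation p = 7.5e-05 and 0.000525), and it was the third closest gene to SQLE out of 12252. The r was 0.849 in males and 0.311 in females, and it was 0.674 without lean replicate 7. With HMGCS1, SREBF2 had r = 0.615 (rho 0.524, BH-corrected permutation p = 0.0006 and 0.0058), with 0.641 in males, 0.284 in females and 0.552 without lean replicate 7. Whether these correlations differ between the sexes was not tested.

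INSIG1 and IDI1 formed the other related pair. Their r was 0.529 and their rho 0.461 (BH-corrected permutation p = 0.00337 and 0.0175). The r was 0.459 without the 2 farthest pigs, 0.532 without lean replicate 7, 0.584 (lean), 0.133 (intermediate) and 0.68 (obese) by group. In the 12 intermediate pigs, INSIG1 and IDI1 even ran against HMGCS1 and SQLE, with r from -0.365 to -0.258, which did not pass the correction. These 4 pairs of 15 passed in both measures, and none of the other pairs did.

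No pair with FDFT1, which acts directly before SQLE in the pathway, passed, and its r over the 36 pigs ran from -0.266 with SREBF2 to 0.0528 with INSIG1. Within sexes and groups the values were more spread, with r = 0.496 in males and -0.0647 in females for FDFT1 with IDI1 and -0.525 in intermediate pigs for FDFT1 with SREBF2. The difference between males and females in r was not tested. The median r of the 15 pairs was 0.234, beside 0.038 over pairs of all genes. Recovered reads per pig, which differ with depth, had r of -0.167 to 0.353 with the 6 genes, and the coefficients changed little when the values were divided by the whole size factor, where HMGCS1 and SQLE had r = 0.826 and HMGCS1 and IDI1 also passed (r = 0.407, BH-corrected permutation p = 0.0418).

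**Figure D3:**
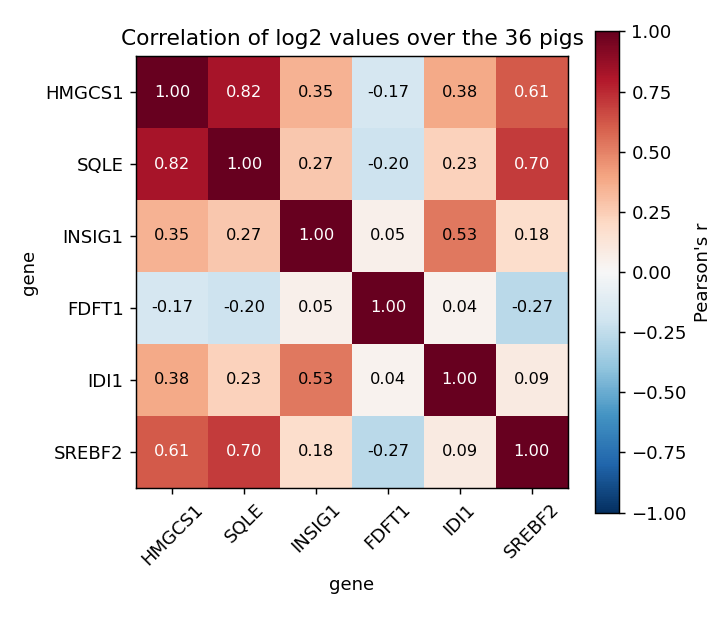
Pearson's r between the log2 values of each pair of the 6 genes over the 36 pigs, on a colour scale from -1 to 1. HMGCS1, SQLE and SREBF2 share r of 0.615 to 0.821, INSIG1 and IDI1 have 0.53, and the row of FDFT1 stays between -0.27 and 0.05.

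**Figure D4:**
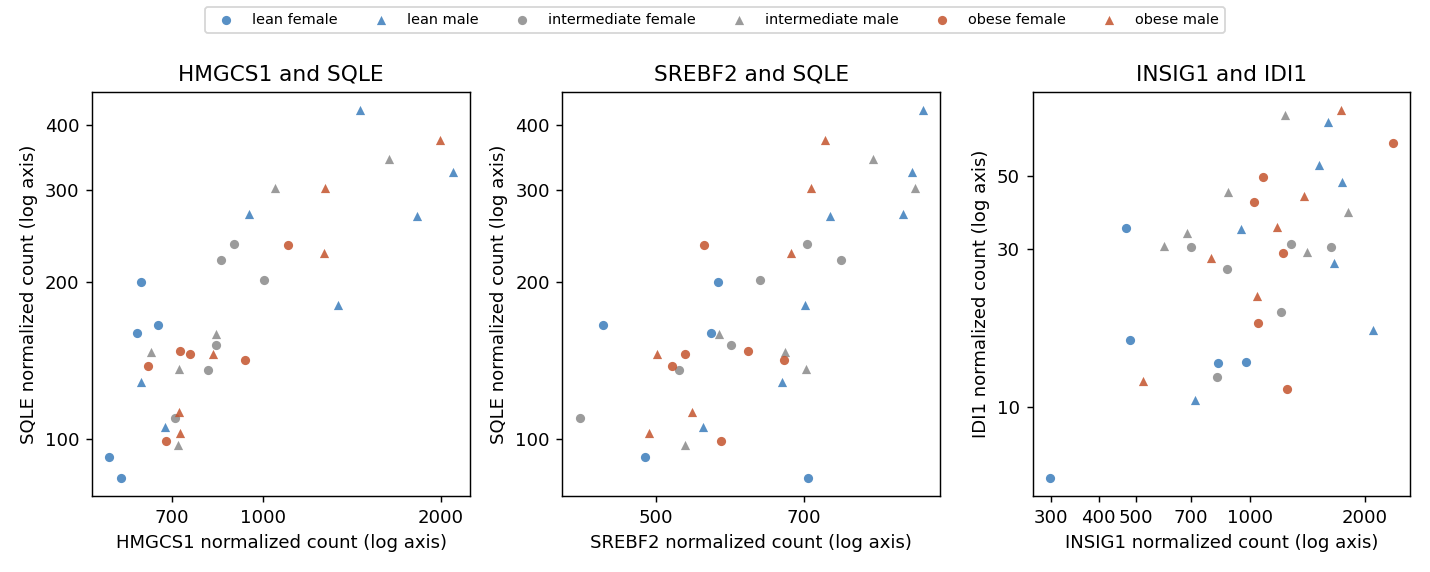
Normalized counts (log axes) of SQLE against HMGCS1, SQLE against SREBF2 and IDI1 against INSIG1, with 1 point per pig, colours for the groups, circles for females and triangles for males. The points of HMGCS1 and SQLE rise along a line in all groups (r = 0.821), while those of INSIG1 and IDI1 scatter widely (r = 0.529).

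Other genes of the pathway were then described in relation to the 6 genes, using the mean of the 6 scaled genes after a sex term. Since each of the 6 genes is part of this mean, it was set against the mean of the other 5, where r was 0.648 for HMGCS1, 0.588 for SQLE, 0.396 for INSIG1, 0.342 for SREBF2, 0.32 for IDI1 and 0.00188 for FDFT1. Out of all remaining genes, the closest was MSMO1, the sterol methyl oxidase that acts after lanosterol, with r = 0.825 and 0.824 without lean replicate 7. FDPS, which makes farnesyl diphosphate, was next with r = 0.756. Others among the closest 10 had r of 0.665 to 0.676 and were a gene without a symbol (ENSSSCG00000025557), CYP51A1, which demethylates lanosterol, ACAT2, which makes acetoacetyl-CoA, PTPA, SPHK2, TOMM40 and ELAC2. Thus 4 of the 10 were sterol synthesis genes.

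Of the 13 further sterol synthesis genes in the table, 7 had r over 0.5 with the mean, compared with 135 genes or 1.1% of all genes, and their median r was 0.546 compared with -0.0073. The 4 genes of the mevalonate steps had a median of 0.614, and the 9 of the squalene and later steps had 0.491. Genes for uptake and transport inside the cell were mixed. NPC1, which moves cholesterol out of lysosomes, had r = 0.511, but the median of the 9 genes was -0.123, and MYLIP, a ubiquitin ligase that lowers lipoprotein uptake, had the lowest at -0.461. Medians were -0.228 for 3 genes of sterol sensing, -0.0197 for 10 genes of esterification, efflux and oxysterol response and 0.351 for 8 genes of fatty acid synthesis. These coefficients are a description over the 36 pigs, whose values share the same scaling.

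**Figure D5:**
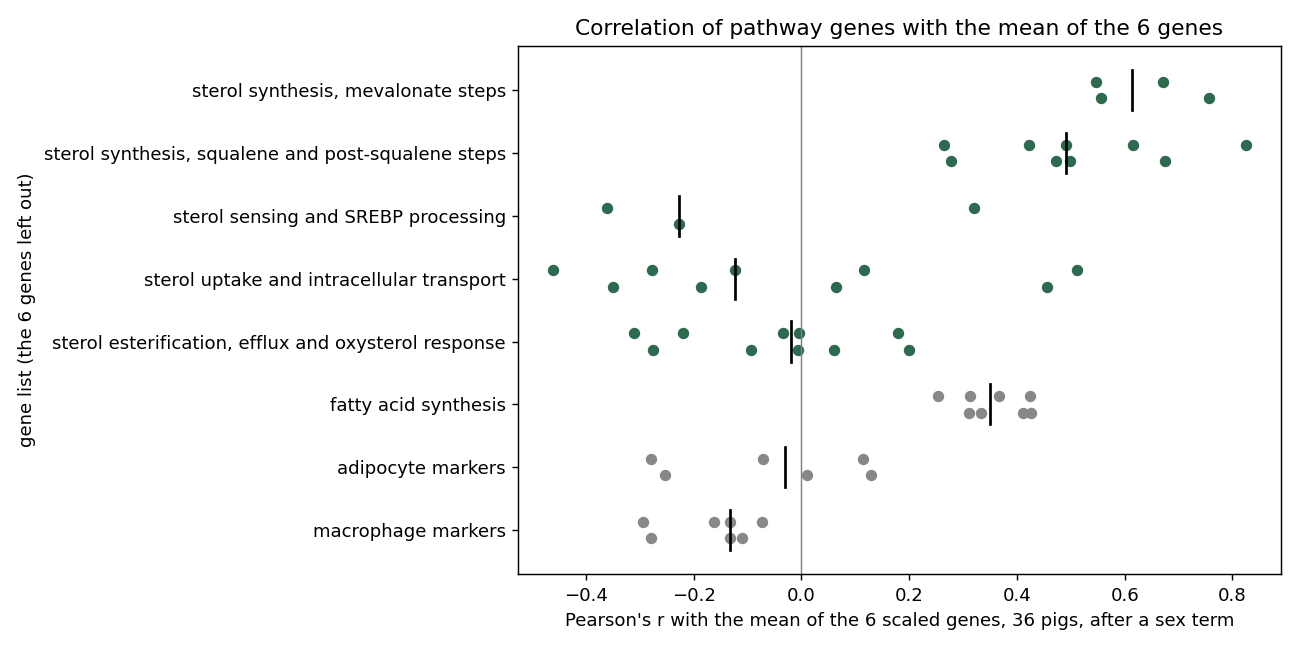
Pearson's r of each gene of the pathway lists, and of the adipocyte and macrophage markers, with the mean of the 6 scaled genes over 36 pigs after a sex term, with a black line at each list's median. The mevalonate steps lie from 0.546 to 0.756, and the macrophage markers lie below 0, with a median of -0.132.

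Between obese and lean pigs, 0 of the 49 genes in these 6 lists passed in either direction, and 6 (12.2%) were past an unadjusted p of 0.05, fewer than the 14.7% of all genes. Among the 17 sterol synthesis genes, including HMGCS1, IDI1, FDFT1 and SQLE, 12 lay above 0 with a median log2 difference of 0.10, compared with 47.5% of all genes and a median of -0.011. The highest was IDI1 in the mevalonate steps and LSS, the lanosterol synthase, in the later steps, at 0.38 (limma adjusted p = 0.434). The lowest in the same lists were ACAT2 at -0.00 (limma adjusted p = 0.996) and TM7SF2, a sterol reductase, at -0.25 (limma adjusted p = 0.75).

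In the uptake list, the extremes were LIPA, the lysosomal acid lipase, at 0.42 (limma adjusted p = 0.24) and SCARB1, the HDL receptor, at -0.16 (limma adjusted p = 0.705). In the esterification and efflux list they were NCEH1, a cholesteryl ester hydrolase, at 0.60 (limma adjusted p = 0.158) and APOA1, the main HDL apolipoprotein, at -0.45 (limma adjusted p = 0.62). All 8 fatty acid synthesis genes lay above 0 (47.5% of all genes did), from 0.38 for MLXIPL, a carbohydrate-responsive transcription factor, to 1.13 for FASN, the fatty acid synthase (limma adjusted p = 0.335 and 0.108). NPC1, picked after its values were seen, had 0.41 (limma adjusted p = 0.109). In females alone NPC1 had 0.71 and LSS 0.80, and both passed (limma adjusted p = 0.0341), but the interaction with sex passed for neither (-0.55 and -0.78, limma adjusted p = 0.338 and 0.443).

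By sex, the 13 sterol synthesis genes other than HMGCS1, IDI1, FDFT1 and SQLE were described in the same way. They were measured in the same pigs and varied together, with a median r of 0.546 with the mean of the 6 genes. Counts over them are therefore not counts of independent observations. For male minus female, 12 of the 13 lay above 0 with a median log2 difference of 0.24, compared with 47.7% of all genes and a median of -0.009. Of these, 7 (53.8%) were past an unadjusted p of 0.05 compared with 18.3% of all genes, while 0 passed the correction. For the interaction, 13 of 13 lay below 0 with a median of -0.74, compared with 39.6% of all genes below 0 and a median of 0.09. Of the 13, 3 were past an unadjusted p of 0.05, where 12.9% of all genes were, and 0 passed the correction. In 10 of the 13 genes the lean females had the lowest mean log2 value of the 6 combinations of sex and group, which was the case for 12.7% of all genes. This last count was made after the values were seen. These traits were not particular to sterol synthesis. Each of the 8 fatty acid synthesis genes also had its lowest mean log2 value in the lean females. For male minus female, 7 of those 8 genes lay above 0 with a median of 0.52, and all 8 interactions lay below 0. The summed macrophage markers had medians of 2565 in lean and 6565 in obese pigs, and of the 7 markers 7 were past an unadjusted p of 0.05 for obese minus lean and 0 passed the correction. Their r with the 6 genes after a sex term lay between -0.28 for FDFT1 and 0.0738 for IDI1. The part of cell composition in these patterns was not tested.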

How the data were processed

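RNA-Seq reads from 36 pigs were mapped by the authors to Sscrofa10.2 with STAR, counted with HTSeq, filtered for low genes, given DESeq size factors and passed through voom. The deposited values are log2 values. In them 99.9% of values lie within 0.1 of the steps of whole reads (count plus 0.5, divided by size factor plus 1), so depth is only partly removed and sex is not removed. Size factors ran from 0.796 to 1.18. Levels divide the recovered reads by that factor.

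Differences were fitted on the deposited log2 values of all 12253 genes with limma 3.58.1 in R 4.3.3 (empirical Bayes, intensity trend, group and sex terms, BH correction at 0.05). Correlations used two-sided permutation with 100000 resamples. Scripts ran in Python 3.11.15 and were tested on simulated data. Gene symbols matched 8320 of 12253 genes. The 6 genes and the lists were chosen with earlier results of these data known. Named besides the 6 genes were each list's highest and lowest gene for obese minus lean, and the 10 genes closest to the mean of the 6, and some genes of this rule are not reported here. Replicates are separate pigs numbered in accession order. Alternatives were no sex term, lean and obese pigs alone, no trend, removal of the lowest 25% of genes, median subtraction, voom on recovered reads, 1 sex alone and each pig left out. Division by the whole size factor, correlations without lean replicate 7 and alternatives of the interaction were added after seeing the data. Promoter and protein sequences and coordinates were not used here.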

Additional observations from a re-analysis of the deposited data

Results flagged for a closer look

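INSIG1 in obese replicate 9, a female, had a normalized count of 2376, far above the other 5 obese females, which lay between 1026 and 1248. It was the only value set apart in this way among 36 sets of pigs tested (6 genes in 6 combinations of sex and group), and chance sets apart about 1 in 20. This pig was also the highest obese female in HMGCS1, at 1101, and its INSIG1 value was the highest of all 36 pigs.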

How the results depend on the processing

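No count of the 6 genes changed: 0 passed for obese minus lean, the trend, male minus female and the interaction under every alternative run. Signs did turn, including those of INSIG1 (0.28) and IDI1 (0.45) for obese minus lean. In males alone, obese minus lean was -0.13 for HMGCS1, -0.41 for INSIG1 and -0.01 for IDI1, and the trend was -0.07 for HMGCS1 and -0.21 for INSIG1. In females alone, obese minus lean was 0.08 for SQLE, 0.23 for FDFT1 and 0.01 for SREBF2, and the trend was 0.03, 0.12 and 0.00. When pigs were left out singly, obese minus lean ranged from -0.02 to 0.16 for HMGCS1, -0.18 to 0.01 for SQLE and -0.12 to 0.02 for FDFT1, and the trend from -0.01 to 0.08, -0.09 to 0.00 and -0.06 to 0.01. The cause was not tested.

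Among the 49 pathway genes, 2 passed in females alone, NPC1 (0.71 for obese minus lean, 0.35 for the trend) and LSS (0.80 and 0.40), with limma adjusted p = 0.0341 and 0.0299. Leaving out each pig gave 0 to 1 genes, the 1 being NCEH1 without lean replicate 2 (0.73, limma adjusted p = 0.0312, and 0.36 for the trend, limma adjusted p = 0.0406). The sign of the interaction in the sterol synthesis genes was below 0 in 17 of 17 under each scaling, and in 16 of 17 without lean replicate 6 or without obese replicate 12.

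Pairs passing the correction numbered 1 (lean), 2 (intermediate) and 1 (obese) within the groups of 12 pigs, and 5 after median subtraction or division by the whole size factor. In obese pigs the BH-corrected permutation p was 0.0501 for HMGCS1 with SREBF2. It was 0.0505 both for SQLE with SREBF2 and for INSIG1 with IDI1. These values are too near the threshold for 100000 resamples to place, so the count for obese pigs is uncertain. Correlations turned to -0.0122 for IDI1 with SREBF2 after group and sex terms. In intermediate pigs they were -0.365 for HMGCS1 with INSIG1, -0.306 for HMGCS1 with IDI1, -0.271 for SQLE with INSIG1, -0.258 for SQLE with IDI1, -0.0329 for INSIG1 with FDFT1 and -0.397 for INSIG1 with SREBF2. In obese pigs they were -0.0245 for INSIG1 with SREBF2 and -0.0269 for FDFT1 with IDI1. Leaving out each pig gave -0.0224 to 0.127 for INSIG1 with FDFT1, -0.0333 to 0.0817 for FDFT1 with IDI1 and -0.00536 to 0.142 for IDI1 with SREBF2.

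Genes called over the whole table for obese minus lean numbered 5, all lower in obese pigs, but 17 with lean and obese pigs alone, 12 without the intensity trend, 9 after median subtraction or division by the whole size factor (7 lower and 2 higher in each), 1 after removal of the lowest 25% of genes, 2 in males, 21 in females, 3 without the sex term and 95 with voom on totals (86 lower, 9 higher). The trend went from 3 to 114 with voom on totals, 21 in females, 6 after median subtraction and 5 without the intensity trend. The interaction went from 1 to 2 without the intensity trend and to 0 after median subtraction or division by the whole size factor. Calls for male minus female split into 117 higher and 151 lower, with voom on totals into 92 and 205, after median subtraction into 168 and 156, and after division by the whole size factor into 169 and 164. IDI1 lies among the lowest 25% of genes and has no value there. The median of all genes for the interaction was 0.086, 0.113 with voom on totals, 0.00387 after median subtraction and 0.00312 after division by the whole size factor. No paired analysis was possible because the replicate numbers were given in accession order and pair no pigs. The depth, 8735838 reads in the shallowest pig, limits IDI1 most, with 6.09 normalized counts in its lowest pig. That pig, lean replicate 3, had 6 reads of IDI1, which is the lowest count left in the table after the filter for low genes.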

Other observations

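The 6 genes did not all have the same neighbours among the pathway genes, though some shared them, a pattern picked after the values were seen. After a sex term, IDI1 had r = 0.758 with ME1, the malic enzyme that supplies NADPH, 0.693 with LSS and 0.632 with ACSS2, which makes acetyl-CoA from acetate, whereas SQLE had 0.0168 with ME1 and 0.128 with ACSS2. INSIG1 shared these neighbours of IDI1, with r = 0.537 with ME1, 0.494 with LSS and 0.568 with ACSS2. HMGCS1 and SQLE shared MSMO1, with r = 0.797 and 0.794. Differences between these coefficients were not tested. FDFT1, for which no pair with the other 5 genes passed, had r = 0.641 with SCAP, the sterol sensor, and 0.549 with OSBP, an oxysterol-binding protein.

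MYLIP was the pathway gene whose interaction of sex with obese minus lean lay farthest above 0, at 1.34 (unadjusted p = 0.00196, limma adjusted p = 0.2), opposite in sign to INSIG1. The 8 fatty acid synthesis genes all had interactions below 0, from -1.48 for ACLY to -0.29 for MLXIPL, and none passed the correction.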
